A study of Rattus norvegicus with 24 samples.

Results

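The 8 rows of the miRNA table that name the brain miRNAs miR-9, miR-124, miR-128 and miR-138 were followed across 24 small RNA libraries, out of 1098 miRNAs in all. The members were chosen by name: rno-miR-9a-5p, rno-miR-9a-3p, rno-miR-9b-3p, rno-miR-9b-5p, rno-miR-124-3p, rno-miR-124-5p, rno-miR-128-3p and rno-miR-138-5p. All 8 had counts in every library, the lowest being 425 counts of miR-124-5p. The libraries come from the PVN of the hypothalamus, which the study spells out as periventricular nucleus, and from the central amygdala (CEA) of male Sprague–Dawley rats, 7 weeks old on purchase, with 3 libraries in each of 8 groups. NC rats were normal controls. HT rats underwent partial hepatectomy under isoflurane, with about 20% of the left lobe cut away. HT+EA rats had the same operation and electroacupuncture (EA) at Zusanli and Sanyinjiao 24 h before and just after it, with a current alternating between 2 and 15 Hz for 30 min. HT+SEA rats had the operation and needles at both points without current. Rats of all groups were restrained while awake for the length of a session. Brains were collected 24 h after the final session. The methods divide 12 rats into 4 groups and state that brain samples did not share an animal but did share a batch. The labels tie no PVN library and CEA library to one rat, and name the tissue only as brain. No sham-operated group was analysed here, so hepatectomy cannot be told apart from anaesthesia and incision. The tests measure the spread between these libraries.

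These miRNAs are classed as neuronal from long-standing work. miR-9 is made by neural progenitors and neurons, where its major 5p strand acts on the repressor REST and its 3p strand on the REST partner CoREST. miR-124 rises as neurons differentiate and lowers transcripts of other cell types, among them that of the splicing factor PTBP1. miR-128 sets neuronal excitability in adult brain, and miR-138 limits the size of dendritic spines through the depalmitoylating enzyme APT1. A hairpin precursor gives a 5p and a 3p strand, one of which is usually kept in the Argonaute complex while most of the other is lost. Whole tissue was sequenced, so a lower level can mean fewer cells of a type or less miRNA per cell, which cannot be told apart here.

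The mature sequences, from RefSeq on the rat build GRCr8, are shown because the seed (bases 2 to 8, in capitals) sets which transcripts a miRNA pairs with. A sequence was matched for 6 of the 8 members, and the miR-124 strands are named only.

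rno-miR-9a-5p: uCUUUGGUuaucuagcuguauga
rno-miR-9a-3p: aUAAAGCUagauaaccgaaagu
rno-miR-9b-3p: aUACAGCUagauaaccaa
rno-miR-9b-5p: uUCGGUUAucuagcuuuau
rno-miR-128-3p: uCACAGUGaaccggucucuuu
rno-miR-138-5p: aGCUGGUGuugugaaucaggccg

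No seed is shared among these 6 sequences. miR-9a comes from 3 loci, among them Mir9-2, whose 5p strand lies at chr2:15933307-15933329 on the plus strand. miR-9b-3p is annotated at chr2:15933310-15933327 on the minus strand, inside the same stretch. The whole of miR-9b-3p is the reverse complement of bases 4 to 21 of miR-9a-5p, in capitals here because these 18 bases are what the pair has in common.

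rno-miR-9a-5p: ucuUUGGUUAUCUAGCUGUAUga

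In the same way, all 19 bases of miR-9b-5p are the reverse complement of bases 1 to 19 of miR-9a-3p. The count of miR-9b-3p was 99.2 to 99.79% of that of miR-9a-5p in every library. That of miR-9b-5p was 26.1 to 35.4% of that of miR-9a-3p. How strand was used in counting is not given in the sources used here, so reads of the opposite strands cannot be told apart. The miR-9b rows are therefore uncertain, and miR-9b-3p and miR-9a-5p are not separate measurements. The same held beyond this family: of 26 pairs of miRNAs whose counts differed by 2% or less, 24 had RefSeq sequences, and 23 of those pairs lay on opposite strands.

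Levels are given as normalised CPM, counts scaled to the same library size (CPM, with TMM factors). Libraries held 6584345 to 14828269 counts in the PVN and 9463321 to 14913564 in the CEA, and 3 counts correspond to less than 1 CPM. In the PVN, depth went with treatment. NC held 6584345 to 10668808 counts and HT 8789556 to 11050725, all below HT+EA (12134529 to 14828269) and HT+SEA (13059380 to 13897929). When PVN HT+EA or HT+SEA is compared with HT, treatment and depth therefore cannot be told apart. In the CEA the ranges of HT overlapped with those of HT+EA and HT+SEA. One library stood apart: its TMM factor was 0.822 in CEA HT library 1, against 0.976 to 1.06 in the other 23. Called results, folds within HT and orders of group means that include it are given below without it as well, where it moved them. Small RNA ligation and the double counting above affect levels between different miRNAs, so the order of abundance is approximate.

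miR-9a-5p had the highest mean level of the table, 9.04 to 12.9% of all counts in each library. miR-128-3p ranked 15th at 0.723 to 3.28% of counts, miR-9a-3p 46th, miR-124-3p 73rd and miR-138-5p 112th. miR-124-5p, the strand mostly lost from its hairpin, ranked 214th.

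The comparison of the nuclei asked where these neuronal miRNAs are higher. By edgeR's quasi-likelihood test over 24 libraries, called where the Benjamini-Hochberg adjusted p was below 0.05, 6 of the 8 members were lower in the PVN than in the CEA, beside 38.2% of all 1098 miRNAs called in either direction. Leaving out miR-9b-3p, which repeats miR-9a-5p, and miR-9b-5p makes it 5 of 6 rows. Of the 1098 miRNAs, 703 are known rat miRNAs, and 365 had a mean of at least 10 CPM, as every member did. Shares among those 365 were not computed, here or below. miR-128-3p and miR-138-5p differed most, miR-124-5p less, and miR-9a-5p and miR-124-3p least. The median log2 fold change of the members was -0.33, against 0.01 over all miRNAs. That median falls on miR-9a-5p and miR-9b-3p, which are not separate measurements.

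miR-128-3p lay between 7148 and 13406 CPM in the 12 PVN libraries, with a median of 9702, and between 20533 and 33678 CPM in the 12 CEA libraries, with a median of 24341. Every PVN library was below every CEA library. The nuclei were apart in this way for 5 of the 8 members and, in either direction, for 12.8% of all 1098 miRNAs. The 5 were miR-124-5p, miR-128-3p, miR-138-5p, and miR-9a-5p and miR-9b-3p, which are not separate measurements. For miR-128-3p, by p it was the 14th of 1098. Its log2 fold change was -1.35 (SE 0.0808, edgeR adjusted p = 8.27e-18), a level 2.56-fold higher in the CEA. Within treatments the CEA level was 3.18-fold higher in NC, 2.25-fold in HT (2.06-fold without CEA HT library 1), 2.34-fold in HT+EA and 2.55-fold in HT+SEA.

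miR-138-5p gave the same picture at a far lower level. It lay between 307 and 577 CPM in the PVN, with a median of 348, and between 580.5 and 987 CPM in the CEA, with a median of 796. The highest PVN library, HT library 3, lay just below the lowest CEA library, HT+EA library 3. The level was 2.14-fold higher in the CEA (log2 fold change -1.10, SE 0.0812, edgeR adjusted p = 1.45e-16). Within treatments it was 1.91-fold (HT, and 1.88-fold without CEA HT library 1) to 2.49-fold (NC) higher.

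The other strands of these hairpins tell their loci apart, since the major strands are the same from each locus. They are shown because miR-128-1-5p and miR-128-2-5p differ in sequence while sharing a seed, and the miR-138 strands differ in both.

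rno-miR-128-1-5p: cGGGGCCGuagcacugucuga
rno-miR-128-2-5p: gGGGGCCGaugcacuguaaga
rno-miR-138-1-3p: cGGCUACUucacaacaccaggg
rno-miR-138-2-3p: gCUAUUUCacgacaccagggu

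miR-128-1-5p comes from Mir128-1 at chr13:42251898-42251918 and miR-128-2-5p from Mir128-2 at chr8:120963844-120963864. miR-138-1-3p comes from Mir138-1 at chr8:131178494-131178515 and miR-138-2-3p from Mir138-2 at chr19:10680139-10680159. All 4 were lower in the PVN, and in each the 12 PVN libraries were below the 12 CEA libraries, beside the 12.8% of all miRNAs whose nuclei were apart. The log2 fold changes were -1.29 for miR-128-1-5p, -1.24 for miR-128-2-5p, -1.38 for miR-138-1-3p and -1.02 for miR-138-2-3p, with edgeR adjusted p from 2.01e-16 (miR-138-1-3p) to 5.59e-11 (miR-138-2-3p). Their levels were low: 17 to 119 counts per library for both miR-128 strands, 92 to 591 for miR-138-1-3p and 57 to 278 for miR-138-2-3p.

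miR-9a-5p lay between 87233 and 105423 CPM in the PVN, with a median of 96525, and between 113890.1 and 135039 CPM in the CEA, with a median of 118483. The nuclei did not overlap, and the level was 1.26-fold higher in the CEA (log2 fold change -0.33, SE 0.0583, edgeR adjusted p = 4.6e-06). Its CEA level was 1.22-fold higher in NC, 1.34-fold in HT, 1.24-fold in HT+EA and 1.23-fold in HT+SEA. Without CEA HT library 1, which had the highest value, the call held and the fold in HT was 1.29.

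miR-9a-3p, the minor strand of the same hairpin, lay between 2713 and 3399.5 CPM in the PVN and between 2846 and 3646 CPM in the CEA. The ranges overlapped, and its log2 fold change of -0.05 (95% interval -0.18 to 0.08) did not pass the test (edgeR adjusted p = 0.694). It did pass when miRNAs of low count were removed first, at -0.12. For miR-9b-5p the log2 fold change was 0.05 (95% interval -0.09 to 0.19), and the sign turned under that filter.

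miR-124-3p lay between 969 and 1612 CPM in the PVN and between 1112 and 2054 CPM in the CEA. The ranges overlapped widely, and the level was 1.19-fold higher in the CEA (log2 fold change -0.25, SE 0.083, edgeR adjusted p = 0.0145), a call lost when libraries were scaled by their totals. In HT the CEA level was 1.12-fold higher, and 1.29-fold without CEA HT library 1. miR-124-5p lay between 63.9 and 98.0 CPM in the PVN and between 105 and 179 CPM in the CEA, and was one of the 5 members whose nuclei were apart. It was 1.61-fold higher in the CEA (log2 fold change -0.69, SE 0.0834, edgeR adjusted p = 8.77e-10), most in NC (1.97-fold) and least in HT (1.43-fold, but 1.6-fold without CEA HT library 1).

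**Figure D1:**
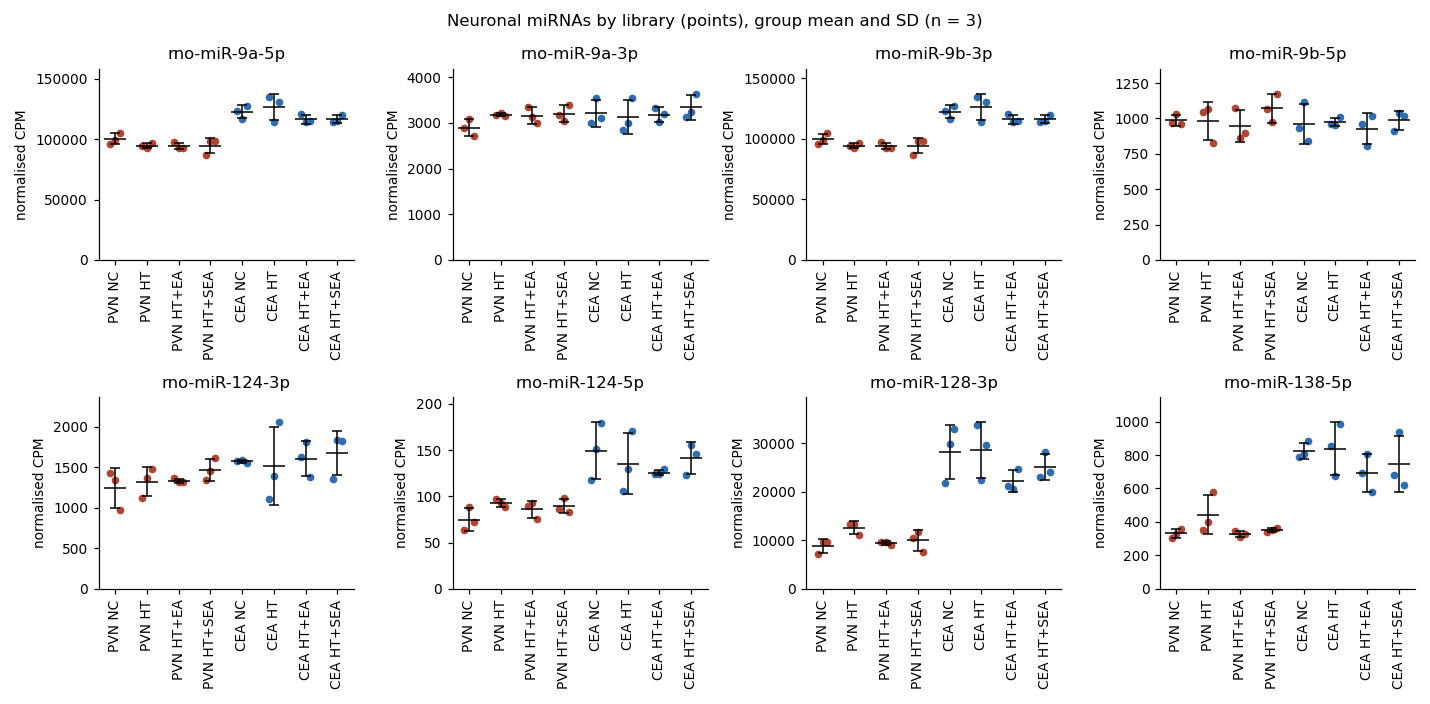
Level of each of the 8 members in normalised CPM (vertical axis, starting at 0) in the 8 groups, with red points for PVN libraries, blue points for CEA libraries and bars for the group mean and SD (n = 3). miR-128-3p is at 13406 CPM or less in the PVN and at 20533 CPM or more in the CEA, while miR-9a-3p and miR-9b-5p overlap between the nuclei.

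**Figure D2:**
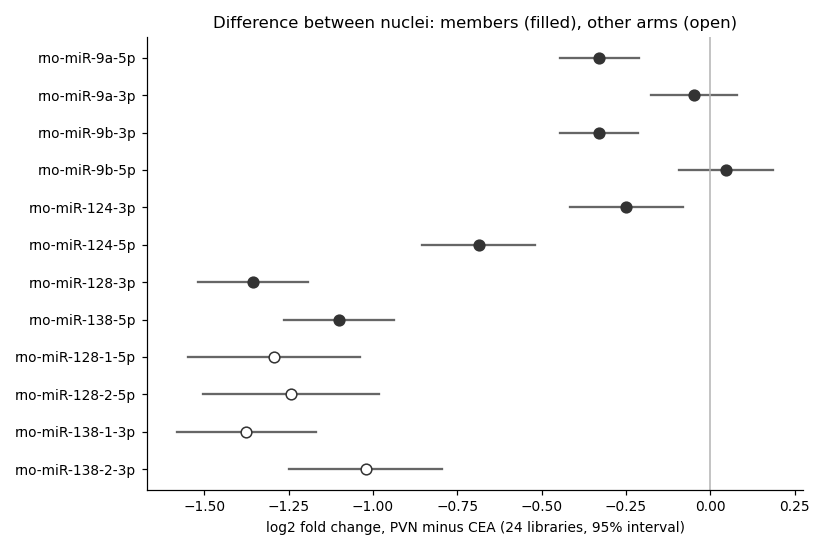
Log2 fold change of the PVN against the CEA (horizontal axis) with its 95% interval over 24 libraries, for the 8 members (filled) and 4 other strands of the miR-128 and miR-138 hairpins (open). The miR-128 and miR-138 strands lie between -1.38 and -1.02, the miR-9a-5p value at -0.33 and the miR-9a-3p value near 0.

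Other brain miRNAs did not share one direction. Of 15 further neuron-enriched miRNAs, 8 were higher and 2 lower in the PVN, with a median log2 fold change of 0.37. All 4 oligodendrocyte miRNAs were lower in the PVN, as miR-128-3p and miR-138-5p were. Their log2 fold changes ran from -0.86 for miR-338-5p to -1.16 for miR-338-3p, a row whose counts nearly equal those of the opposite-strand miR-3065-5p. Summed over the list, they held 1952 to 3569.5 CPM in the PVN and 4377 to 8833 CPM in the CEA, and none was at 0. Lower in the PVN were also 3 of 4 endothelial and mural miRNAs (summed 28238 to 33425 CPM, against 34863 to 42856.5) and 2 of 4 myeloid miRNAs (232 to 376.5 CPM, against 246 to 427). Higher in the PVN were 3 of 4 miRNAs of ependyma and choroid plexus, 2 of 3 blood miRNAs, both pituitary miRNAs (miR-7a-5p, also on the neuron-enriched list, and miR-375-3p) and the liver miRNA miR-122-5p, whose log2 fold change of 0.97 fell to 0.43 without PVN HT library 1 and whose call was lost with 19 of 24 libraries when each was left out in turn. Of 3 astrocyte-enriched miRNAs, 1 was higher and 1 lower. The part of these other cell types in the differences of the members was not tested.

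The balance of strands within a hairpin does not depend on library scaling. miR-9a gave 27.4 to 38.9 reads of 5p for each read of 3p in the PVN libraries and 32.9 to 47.4 in the CEA libraries. Its mean log2 ratio was 4.95 ± 0.13 (SD, n = 12) in the PVN and 5.23 ± 0.15 (SD, n = 12) in the CEA, a difference of -0.28 (exact permutation test within treatments, two-sided, p = 0.000112, the same after adjustment over both hairpins). The group mean was lower in the PVN in all 4 treatments.

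miR-124 went the other way. It gave 11.7 to 22.3 reads of 3p for each read of 5p in the PVN and 8.65 to 14.6 in the CEA. The mean log2 ratio was 3.97 ± 0.24 (SD, n = 12) against 3.53 ± 0.20 (SD, n = 12), a difference of 0.44 (exact permutation test within treatments, two-sided, p = 0.0001, adjusted p = 0.000112), with the group mean higher in the PVN in all 4 treatments. In both hairpins the nuclei overlapped, so the difference is one of means. By these counts, the major strand of miR-9a was relatively less frequent in the PVN and that of miR-124 relatively more frequent. For miR-9a the ratio rests on rows whose reads cannot be told apart from those of the miR-9b rows.

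**Figure D3:**
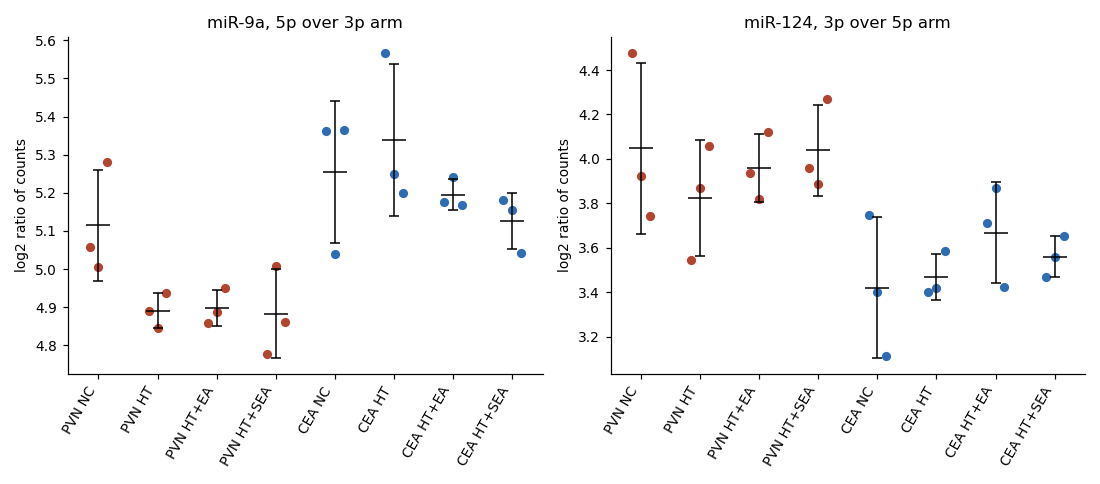
Log2 ratio of the counts of the major to the minor strand (vertical axis, not starting at 0) of miR-9a (left) and miR-124 (right) in the 8 groups, with red points for PVN libraries, blue points for CEA libraries and bars for the mean and SD (n = 3). The PVN means lie lower for miR-9a (4.95 against 5.23 over all treatments) and higher for miR-124 (3.97 against 3.53).

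The comparison of HT with NC asked what surgery did in each nucleus. For treatments the study called a miRNA where its unadjusted p was below 0.05, and so does "called" here, which is the same as a 95% interval that leaves out 0. After adjustment over all miRNAs edgeR called 0 in each of the 8 treatment comparisons, against 21 to 98 before it, so every treatment call below is one that fails the correction. In the PVN, 2 of the 8 members, miR-128-3p and miR-138-5p, were called, both higher after HT, where 8.93% of all miRNAs were called in either direction. These shares of all miRNAs depend on single libraries as well. Without PVN HT library 3, the share fell to 4.83% here, from 7.01 to 3.92% for HT+EA against HT and from 5.01 to 2.55% for HT+SEA against HT in the PVN. In the CEA it ran from 1.55 to 5.83% for HT against NC, from 3.46 to 6.56% for HT+EA against HT and from 2.73 to 7.65% for HT+SEA against HT, as 1 library or another was left out.

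miR-128-3p was at 7148, 9705 and 9606 CPM in the 3 PVN NC libraries and at 13328, 13406 and 11024 CPM in the 3 PVN HT libraries. All HT libraries were above all NC libraries, as they were for 11.1% of all miRNAs in either direction. The level was 1.43-fold higher (log2 fold change 0.51, SE 0.159, 95% interval 0.19 to 0.83, edgeR adjusted p = 0.221), and it stayed called with any of these 6 libraries left out, at 0.37 to 0.61.

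miR-138-5p was at 307, 327 and 358 CPM in PVN NC and at 355, 399.8 and 577 CPM in PVN HT. The groups overlapped by a narrow margin, and HT library 3 was far above the other HT libraries. The level was 1.34-fold higher (log2 fold change 0.43, SE 0.161, 95% interval 0.10 to 0.75, edgeR adjusted p = 0.394). The call was lost without HT library 3, at 0.20, and without NC library 1, at 0.35. Its other strand from the Mir138-1 locus, miR-138-1-3p, rose too, from 13.8, 9.4 and 13.1 CPM to 14.7, 16.8 and 21.6 CPM (log2 fold change 0.56, SE 0.21, edgeR adjusted p = 0.394), a call lost without NC library 2 (0.398) or HT library 3 (0.399), while miR-138-2-3p, from Mir138-2, was not called, at -0.235. Neither minor strand of miR-128 was called, with log2 fold changes of -0.03 for miR-128-1-5p and -0.17 for miR-128-2-5p at 17 to 46 counts per library.

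miR-124-5p was at 63.9, 88.5 and 72.3 CPM in PVN NC and at 96.6, 93.3 and 88.4 CPM in PVN HT. Its log2 fold change of 0.31 (SE 0.168, 95% interval -0.03 to 0.64, edgeR adjusted p = 0.639) was not called. With a library left out it ran from 0.192 to 0.445, the latter without NC library 2, the only case where it was called. All HT libraries of miR-124-5p but library 3 were above all NC libraries. The other 5 members, the miR-9 rows and miR-124-3p, were not called and lay between -0.09 and 0.14 on the log2 scale. miR-9a-3p was at 2888, 3082.5 and 2713 CPM in PVN NC and at 3174, 3223 and 3157.5 CPM in PVN HT, also with all HT libraries above all NC libraries. For miR-9a-5p the 95% interval was -0.32 to 0.15 and for miR-124-3p -0.25 to 0.42.

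Among miRNAs of other cells, some lists were higher and others lower in the same PVN HT libraries. Of the 3 astrocyte-enriched miRNAs, 2 were called higher (miR-29a-3p and miR-29b-3p), and summed over the list they held 4178 to 4831 CPM in PVN NC and 5317 to 6561 CPM in PVN HT. HT library 3, the highest for miR-138-5p, was also the highest for all 3. Of the 4 oligodendrocyte miRNAs, 1 was called higher (miR-338-3p), with 1952 to 3009 CPM summed in NC and 2805 to 2901 CPM in HT. The liver miRNA miR-122-5p was at 12.6 CPM in HT library 1 and at 0.956 to 1.65 CPM in the other 5 libraries. miR-122-5p was called higher, but was at -0.19 without HT library 1. The 4 miRNAs of ependyma and choroid plexus summed to 3764 to 4415 CPM in PVN NC and 2890 to 3270.4 CPM in PVN HT, with 0 called. The 3 blood miRNAs summed to 260.5 to 328 CPM in NC and 219.6 to 225 CPM in HT, also with 0 called, and the 4 myeloid miRNAs to 272 to 376.5 CPM and 241 to 256 CPM, with 1 called lower (miR-223-3p). In these 3 lists every HT sum was below every NC sum. The 4 endothelial and mural miRNAs summed to 29554 to 33425 CPM in NC and 28510.4 to 31686 CPM in HT, which overlapped, with 1 called higher (miR-145-5p). The part of these cells in the changes was not tested. Of the 15 further neuron-enriched miRNAs, 2 were higher and 2 lower (miR-134-5p and miR-382-5p). The 2 higher rows, miR-129-1-3p and miR-129-2-3p, are one of the pairs with nearly the same counts and so are 1 measurement.

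In the CEA, none of the 8 members was called for HT against NC, where 3.19% of all miRNAs were. miR-128-3p was at 21880.2, 29744 and 32820.2 CPM in NC and at 33678, 22441 and 29585 CPM in HT, with a log2 fold change of 0.02 (95% interval -0.30 to 0.34, edgeR adjusted p = 1). miR-138-5p was at 786, 807 and 881 CPM in NC and at 854, 675 and 987 CPM in HT (log2 fold change 0.02, 95% interval -0.30 to 0.35, edgeR adjusted p = 1). In both, the groups overlapped fully and HT library 2 was the lowest of the HT libraries. Without the outlying HT library 1 both values fell below 0, to -0.19 and -0.06. DESeq2 called 0 members as well. With HT library 3 left out, 2 members were called, miR-124-3p (-0.35) and miR-124-5p (-0.37), both lower in HT.

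Whether HT acted differently in the PVN and the CEA was tested as an interaction. No member passed at an adjusted p below 0.05, nor did any miRNA (0% of 1098 with edgeR, also 0 with DESeq2), and 50 miRNAs had an unadjusted p below 0.05. miR-128-3p was among these 50. Its effect in the PVN was larger by 0.49 on the log2 scale (SE 0.225, 95% interval 0.04 to 0.95, edgeR adjusted p = 0.904). With 1 library left out it ran from 0.335 (PVN NC library 1) to 0.679 (CEA HT library 1). For miR-124-5p the difference was 0.45 (95% interval -0.03 to 0.92), with 0.282 without CEA NC library 3, 0.347 without CEA HT library 1 and 0.653 without CEA HT library 3. For miR-138-5p it was 0.40 (95% interval -0.06 to 0.86), with 0.161 without PVN HT library 3, 0.47 without CEA HT library 1 and 0.538 without PVN HT library 1.

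EA against HT alone was compared on the same HT libraries as HT against NC, so the 2 comparisons are not independent. In the PVN, 2 of the 8 members were called, again miR-128-3p and miR-138-5p and both lower with EA, where 7.01% of all miRNAs were called in either direction. miR-128-3p was at 9648, 9698 and 8947 CPM in PVN HT+EA, all below the HT libraries and within the range of NC. In this comparison 13.9% of all miRNAs had no overlap in either direction. The log2 fold change was -0.42 (SE 0.159, 95% interval -0.74 to -0.10, edgeR adjusted p = 0.543), a 1.33-fold lower level. The call was lost without HT library 2, at -0.32, and without HT+EA library 1, at -0.37.

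miR-138-5p was at 345, 311 and 329 CPM in PVN HT+EA, also all below the HT libraries and within the range of NC. The log2 fold change was -0.44 (SE 0.161, 95% interval -0.76 to -0.11, edgeR adjusted p = 0.543), a 1.35-fold lower level, and the call was lost without HT library 3, at -0.18, and without HT+EA library 2, at -0.34. miR-138-1-3p was lower as well, at 12, 14.5 and 13.3 CPM (log2 fold change -0.42, SE 0.205, edgeR adjusted p = 0.69), a call that held only when HT library 1 was the one left out and that fell to -0.22 without HT library 3. The other 6 members lay between -0.11 and 0.01. In the same comparison 2 of 3 astrocyte-enriched miRNAs were called lower, with 4788 to 5352.5 CPM summed in HT+EA. miR-122-5p was also lower, at 1.32 to 2.42 CPM (0.74 on the log2 scale without HT library 1). Of the 4 oligodendrocyte miRNAs, 1 was called lower (miR-219a-5p), and the median log2 fold change of the list was -0.153. Their sum was not lower, at 2805 to 2901 CPM in HT and 2829 to 3569.5 CPM in HT+EA. Most of it was miR-219a-2-3p, not called, at 2212, 2232 and 2003 CPM in HT and 2248, 2860 and 2650 CPM in HT+EA. Called higher was 1 of 4 myeloid miRNAs, and the blood miRNAs held 1 higher and 1 lower. The part of these cells in the result was not tested. Of the 15 further neuron-enriched miRNAs, 2 were lower.

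HT+SEA was compared with the same 3 HT libraries once more, so high HT values enter both this comparison and the one of HT+EA. In the PVN, 2 of the 8 members, miR-128-3p and miR-138-5p, were called lower in HT+SEA than in HT, where 5.01% of all miRNAs were called. miR-128-3p was at 10479, 11739 and 7669 CPM in PVN HT+SEA, overlapping with HT, with a log2 fold change of -0.34 (SE 0.159, 95% interval -0.66 to -0.02, edgeR adjusted p = 0.84). miR-138-5p was at 341, 352 and 361 CPM, also overlapping with HT, with a log2 fold change of -0.34 (SE 0.161, 95% interval -0.66 to -0.02, edgeR adjusted p = 0.84). Both calls were close to the threshold. They were lost with DESeq2 and after the filter on low counts, the miR-128-3p call also without HT library 1 or 2 or HT+SEA library 1 or 3 (-0.18 without the last), and the miR-138-5p call with any library but HT library 1 left out (-0.11 without HT library 3). miR-138-1-3p was at 11.1, 12.8 and 13 CPM, below all HT libraries (10.3% of all miRNAs did not overlap here, and 0 of the 8 members), with a log2 fold change of -0.53 (SE 0.205, edgeR adjusted p = 0.84), a call lost without HT library 3 (-0.36) or HT+SEA library 1 (-0.43). miR-29b-3p and miR-122-5p were again lower (miR-122-5p at -0.11 without HT library 1), and the astrocyte-enriched miRNAs summed to 4753 to 5280.4 CPM. Of the 15 further neuron-enriched miRNAs, 2 were lower, the miR-129-1-3p and miR-129-2-3p rows that are 1 measurement. Their part in the result was not tested.

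Current itself was tested by HT+EA against HT+SEA. No member was called in the PVN, where 2.73% of all miRNAs were. The log2 fold change was -0.08 for miR-128-3p (95% interval -0.40 to 0.24, edgeR adjusted p = 1) and -0.10 for miR-138-5p (95% interval -0.42 to 0.22, edgeR adjusted p = 1). Differences of up to 0.40 and 0.42 in size lie within these intervals, so the comparison does not show that EA and SEA act alike. DESeq2 called 0 members too.

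In the CEA, 1 of the 8 members was called for HT+EA against HT, where 5.37% of all miRNAs were. miR-128-3p was at 21219, 20533 and 24700.5 CPM in CEA HT+EA, overlapping with the HT libraries given above. The log2 fold change was -0.37 (SE 0.159, 95% interval -0.69 to -0.05, edgeR adjusted p = 0.878). With 1 library left out it ran from -0.593 to -0.197, the latter without the outlying HT library 1, where it was not called. The call was also lost without HT library 3 (-0.35), HT+EA library 1 (-0.34) or HT+EA library 2 (-0.315), and when libraries were scaled by their totals (-0.24). miR-138-5p was at 694, 807 and 580.5 CPM, with a log2 fold change of -0.27 (SE 0.16, 95% interval -0.60 to 0.05, edgeR adjusted p = 0.917) that was called only without HT library 2 (-0.47), without HT+EA library 2 (-0.40) or with DESeq2's size factors in edgeR (-0.32). miR-138-1-3p was at 59.2, 30.6 and 40.5 CPM in CEA HT and at 34.2, 32.0 and 29.8 CPM in CEA HT+EA, lower by the test (log2 fold change -0.44, SE 0.198, edgeR adjusted p = 0.878) although the groups overlapped and HT library 1 was far above the rest. Without that library it was at -0.12 and not called, and the call was also lost without HT+EA library 2 or 3 (-0.44 each). Without HT library 2 it was called, at -0.721. miR-9a-5p, at 135039, 113975 and 130796 CPM in HT and 120625, 114119.7 and 114693 CPM in HT+EA, was not called by edgeR (-0.12) but was by DESeq2 (-0.175). With a library left out the edgeR value ran from -0.264 to -0.036, never called. miR-29b-3p was lower in the same comparison, 1 of the 3 astrocyte-enriched miRNAs, whose median log2 fold change was 0.018. That list summed to 5371 to 5858 CPM in HT+EA and 4841 to 7197 CPM in HT, and 1 of 4 myeloid miRNAs was higher. Their part in the result was not tested. Of the 15 further neuron-enriched miRNAs, 2 were higher and 3 lower.

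No member was called for HT+SEA against HT in the CEA, where 4.83% of all miRNAs were, nor for HT+EA against HT+SEA, where 1.91% were. Against HT, the log2 fold change with SEA was -0.19 for miR-128-3p (95% interval -0.51 to 0.13) and -0.17 for miR-138-5p (95% interval -0.49 to 0.15). Both were called without HT library 2, the lowest HT library of both, at -0.395 and -0.36, and miR-138-5p also without HT+SEA library 2, at -0.37. miR-124-3p was called higher without HT library 3, at 0.42 with SEA and 0.35 with EA. miR-138-1-3p was lower with SEA (log2 fold change -0.43, SE 0.198, edgeR adjusted p = 0.91), but at -0.05 and not called without HT library 1, nor called without HT+SEA library 1 (-0.326) or HT+SEA library 3 (-0.364). Without HT library 2 it was called, at -0.689. In the same comparison 3 of the 15 further neuron-enriched miRNAs (miR-132-3p, miR-136-5p and miR-218a-5p) and 1 of 3 astrocyte-enriched miRNAs (miR-29b-3p; 5397 to 6598 CPM summed in HT+SEA) were called lower. Neither list was lower by its median log2 fold change, 0.06 for the neuron-enriched and 0.069 for the astrocyte-enriched miRNAs. Called higher were 1 of 4 myeloid miRNAs (miR-223-3p; 246 to 333.3 CPM summed in HT and 251 to 366 CPM in HT+SEA), 1 of 3 blood miRNAs (miR-451-5p; 108 to 198.5 CPM and 161 to 317 CPM) and 1 of 4 miRNAs of ependyma and choroid plexus (miR-449a-5p; 625 to 1399 CPM and 904 to 1930 CPM). The summed levels overlapped in each of these lists, and their part in the result was not tested. DESeq2 called 0 members in both comparisons. The effect of EA differed between the nuclei for no member and no miRNA at an adjusted p below 0.05 (0% of 1098 with edgeR, also 0 with DESeq2, with 20 at an unadjusted p below 0.05). For miR-128-3p the difference was -0.05 (95% interval -0.50 to 0.40).

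In edgeR's fit of all 24 libraries, no miR-9 or miR-124 row was called in a treatment comparison. Over the 8 treatment comparisons these 6 members gave 48 log2 fold changes, between -0.18 and 0.31, and the miR-9 rows alone 32, between -0.18 and 0.14. With 3 libraries per group their intervals leave room for larger changes. miR-9a-5p and miR-9b-3p, which are 1 measurement, were called lower in CEA HT+EA than in HT with DESeq2 (-0.175 and -0.174) and lower in CEA HT+SEA than in HT after the filter on low counts (-0.189 and -0.188). miR-9b-5p was called lower in PVN HT+EA than in HT+SEA when only those libraries were fitted (-0.192), and miR-124-3p and miR-124-5p were called with some single libraries left out, as given above.

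**Figure D4:**
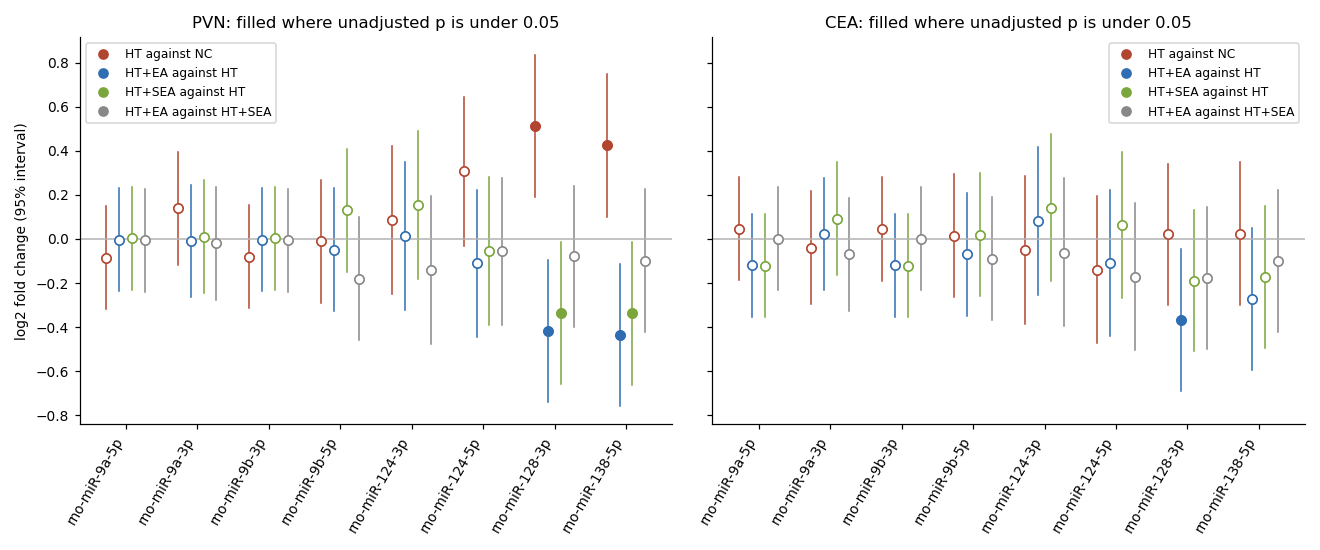
Log2 fold change with its 95% interval (vertical axis) of the 8 members in 4 treatment comparisons in the PVN (left) and the CEA (right), from 3 libraries per group, with filled points where the unadjusted p is under 0.05. In the PVN miR-128-3p and miR-138-5p lie above 0 for HT against NC and below 0 for HT+EA and HT+SEA against HT, while the miR-9 rows stay between -0.18 and 0.14.

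Over the 8 groups, the 4 CEA groups held the 4 highest means of miR-9a-5p, miR-124-3p, miR-124-5p, miR-128-3p and miR-138-5p. For miR-128-3p the order was CEA HT (28568 ± 5687 CPM, SD, n = 3), CEA NC (28148 ± 5642), CEA HT+SEA (25063 ± 2714), CEA HT+EA (22151 ± 2235), PVN HT (12586 ± 1353), PVN HT+SEA (9962 ± 2084), PVN HT+EA (9431 ± 420.1) and PVN NC (8819.7 ± 1449). Neighbours in this order differed by less than the larger SD of the pair, except at the steps from CEA HT+SEA to CEA HT+EA, from CEA HT+EA to PVN HT and from PVN HT to PVN HT+SEA. For miR-138-5p the order was CEA HT (839 ± 156), CEA NC (825 ± 50.2), CEA HT+SEA (745 ± 168), CEA HT+EA (694 ± 113), PVN HT (444 ± 118), PVN HT+SEA (351 ± 10), PVN NC (331 ± 25.9) and PVN HT+EA (328 ± 17.2). Here the step between the nuclei was the only one that exceeded the larger SD of its pair. Without CEA HT library 1 the CEA HT mean was 26013 CPM for miR-128-3p and 122386 CPM for miR-9a-5p, in both second to CEA NC in place of first. For miR-138-5p it was 831 CPM, next to 825 CPM in CEA NC, where the edgeR fit without that library put HT below NC (-0.06), so the order of these 2 groups is not settled. These means keep the scaling of all 24 libraries. For miR-124-5p the CEA HT mean, the third highest with all libraries, was then the highest, at 150.3 CPM. The CEA HT mean of miR-124-3p went from the fourth place, at 1518 CPM, to the first, at 1721.5 CPM. The 4 CEA means of these 5 members stayed above the 4 PVN means.

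Pearson's r of log2 CPM between miR-128-3p and miR-138-5p was 0.39 over the 12 PVN libraries, 0.58 over the 12 CEA libraries and 0.13 over 24 libraries once group means were taken out. Between miR-9a-5p and its own minor strand miR-9a-3p it was -0.39 in the PVN, -0.08 in the CEA and 0.05 with group means taken out. miR-9a-3p and miR-124-3p had r of 0.61 and 0.65, and 0.60 with group means taken out. Library scale and depth are shared by all these points.

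The miRNAs most like each member were taken from 355 others by Pearson's r of log2 CPM over the 24 libraries, which is mostly set by the difference between the nuclei. For miR-128-3p they were miR-139-5p, miR-221-5p and miR-221-3p (r 0.95, 0.95 and 0.94, and 0.34 to 0.67 in the PVN alone). For miR-138-5p they were miR-139-5p, its own miR-138-1-3p and miR-7a-1-3p (r 0.96, 0.95 and 0.95, and 0.71 to 0.82 in the PVN alone). For miR-9a-5p, and likewise for miR-9b-3p, they were miR-30a-5p, miR-139-5p and miR-139-3p (r 0.93, 0.92 and 0.92, but -0.14 to 0.34 in the PVN alone).

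For miR-124-5p the closest were miR-30e-5p, miR-22-3p and miR-7a-1-3p (r 0.95, 0.93 and 0.92). For miR-124-3p they were miR-23a-3p, miR-30b-5p and miR-142-5p (r 0.81, 0.73 and 0.68), and none of the 3 closest was shared by the strands of this hairpin. With group means taken out, r was 0.83 for miR-124-3p with miR-23a-3p and 0.84 for miR-124-5p with miR-30e-5p. For miR-9a-3p they were miR-142-5p, miR-322-3p and miR-505-3p (r 0.73, 0.67 and 0.67), and for miR-9b-5p miR-872-5p, miR-370-3p and miR-204-3p (r 0.53, 0.52 and 0.50).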

How the data were processed

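The authors deposited raw counts per miRNA (1098 rows, 24 count columns) from NEBNext small RNA libraries. Per the methods, reads were filtered, mapped to mRatBN7.2 with HISAT2 and counted with featureCounts, with no separate mapping or counting described for the miRNA libraries. The submitters' processing notes name GRCh38 and hg38, and the design text says mouse, where the samples are labelled rat. How reads matching several miRNAs were counted is not given in the sources used here. A further 24 columns of per-sample values were not used.

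All 24 libraries were fitted with edgeR 4.0.16 (limma 3.58.1, R 4.3.3): TMM scaling, 8 group means, robust glmQLFit and glmQLFTest over all miRNAs with at least 1 count, with 16 residual degrees of freedom. Adjusted p-values are Benjamini-Hochberg over all 1098 miRNAs. The standard error is the log2 fold change over the square root of F. Alternatives included DESeq2 1.42.0, other scalings and filters, a replicate block and each library left out. The fit was tested on simulated data.

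The members, lists and tests were chosen with earlier results of these data known. Named are the members, the other strands of their hairpins, and for each member the 3 known miRNAs of at least 10 CPM with the highest r; cell type lists are named where they move with a member. Strand ratios are log2 ratios of counts with 0.5 added to each, with 160000 arrangements in the exact test. Depth limits the minor strands most, which held 17 counts at the least.

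Same-numbered libraries were not taken as pairs, since the labels do not say that a number marks one rat.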

Additional observations from a re-analysis of the deposited data

How the results depend on the processing

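Of the 11 comparisons, the count of members that differed between PVN and CEA stayed within 1.5 times of 6 under 10 of 10 settings and with any of 24 libraries left out, and both strand ratios kept direction and call. At an adjusted threshold the treatment comparisons called 0 members. Calls of 2 in PVN HT against NC became 1 to 3 with a library left out, those of 2 in PVN HT+EA against HT became 1 to 2, and those of 2 in PVN HT+SEA against HT became 0 to 1, and 0 with DESeq2 or the low count filter (filterByExpr). In PVN HT+EA against HT+SEA, fitting only the libraries compared called 1 member (miR-9b-5p). In CEA HT+EA against HT, the count of 1 became 3 with DESeq2, 2 with RLE size factors, 0 with library totals and 0 to 2 with a library left out. In CEA HT+SEA against HT it was 2 after the low count filter (miR-9a-5p and miR-9b-3p) and 0 to 2 with a library left out, as in CEA HT against NC. The HT interaction called 1 member at an unadjusted threshold.

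Directions turned for small differences. That of miR-9b-5p between PVN and CEA was -0.028 after the low count filter and -0.041 to 0.078 with a library left out. For CEA HT against NC with library totals, miR-128-3p was at -0.084 and miR-138-5p at -0.067, and with a library left out at -0.188 to 0.185 and -0.135 to 0.164. With a library left out, miR-128-3p ran from -0.236 to 0.063 in PVN HT+EA against HT+SEA and from -0.395 to 0.035 in CEA HT+SEA against HT, and miR-138-5p from -0.225 to 0.1 in CEA HT+EA against HT+SEA. The HT+EA interaction of miR-128-3p was 0.014 with DESeq2 and with RLE size factors and -0.209 to 0.177 with a library left out, and that of miR-138-5p ran from -0.301 to 0.146. Leaving out libraries for the other strands and miR-122-5p, and CEA HT library 1 for group means and folds within HT, was chosen after seeing the data. miR-122-5p ran from -0.191 to 2.455 in PVN HT against NC and from -1.871 to 0.74 in PVN HT+EA against HT. The cause of these shifts was not tested. Over all miRNAs, calls differed by more than 1.5 times in PVN HT+EA against HT+SEA (30, against 69 with only the libraries compared, 18 with DESeq2 and 17 after the filter), CEA HT against NC (35, against 20 and 21 with the last 2) and CEA HT+EA against HT+SEA (21, against 12 and 11). With a library left out, calls over all miRNAs ran from 53 to 93 (98 with all) in PVN HT against NC, 43 to 88 (77) in PVN HT+EA against HT, 28 to 72 (55) in PVN HT+SEA against HT, 19 to 30 (30) in PVN HT+EA against HT+SEA, 17 to 64 (35) in CEA HT against NC, 38 to 72 (59) in CEA HT+EA against HT, 30 to 84 (53) in CEA HT+SEA against HT and 11 to 25 (21) in CEA HT+EA against HT+SEA, but only from 404 to 420 (419) between the nuclei.

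Blocking on the replicate number changed no call of a member: miR-128-3p in PVN HT against NC was at 0.516. This block joins libraries of different treatments, and so of different rats, and is not a block by animal. A block of treatment and number was fitted for PVN against CEA only, where 6 members were called as before. Of 12 PVN libraries, 11 correlated best with their own number in the CEA, a hint from the data and not the design, and deviations of same-numbered libraries correlated at -0.107 to 0.646. With 3 libraries per group and 17 counts at the least in a minor strand, differences within the intervals given could not be resolved.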
